A study of Danio rerio with 2 samples.

Results

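Cholesterol synthesis genes were examined in single-cell RNA-sequencing of zebrafish heads. The set was given by symbol as *hmgcra*, *hmgcs1*, *sqlea*, *ldlra*, *srebf2*, *insig1*, *idi1*, *cyp51*, *lss* and *dhcr7*, and all 10 were among the 37423 genes counted. The study asked how loss of *polr3a*, which encodes the largest subunit of RNA polymerase III, alters the developing head. It compared 1 library from *polr3a* sa907 homozygotes with 1 library from wild-type animals of the same cross. Each was made from 10 pooled heads, cut at the pectoral fin at 3 dpf (days post fertilization). Both groups came from heterozygous parents that carried *Tg(fli1a:egfp)* or *Tg(sox10:mRFP)*, so embryos of both groups were chosen as GFP- and RFP-positive and were then genotyped. The sa907 allele is a nonsense mutation in every cell, and transcript deposited by the heterozygous mother can remain early in development.

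Cholesterol is built from acetyl-CoA. HMG-CoA synthase and HMG-CoA reductase begin the mevalonate pathway, with the reductase as its rate-limiting enzyme, isoprenoid units are joined into squalene, and squalene is closed into lanosterol and trimmed to cholesterol. In vertebrate cells low in sterol, SCAP carries the transcription factor SREBP2 out of the endoplasmic reticulum, and SREBP2 raises the synthesis enzymes and the LDL receptor together. INSIG proteins hold SCAP back when sterol is high and also lead the reductase to degradation. Photoreceptors renew large amounts of membrane, and radial glia and other glia supply sterol to the nervous system.

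After the filters, 26454 cells with 130701622 UMIs (unique molecular identifiers, one for each captured transcript) were kept from the library labelled mutant and 36996 cells with 159367137 UMIs from the library labelled wild-type. Median depths were 4044.5 and 3401.5 UMIs per cell, and 405 barcodes occurred in both libraries. *polr3a* itself stood at 16.3 CPM (UMIs per 1000000 UMIs) under the mutant label and 13.8 CPM under the wild-type label, a log2 ratio of 0.25 (0.16 to 0.33), so the mutated gene was not lower under the mutant label. The paper reported lower *polr3a* transcript in homozygous mutants by qRT-PCR, a drop that these UMIs do not show. By the same method it reported higher *atf4b* and *chac1* in mutants. Under the mutant label these genes were higher here too, with log2 ratios of 0.78 and 1.05. Whether each label is right was not tested, and every direction below is given between the libraries as labelled. Marker gates placed 52.7% and 50.3% of the cells in a type, and 20 types had at least 50 cells in each library. With 1 library per genotype no test between genotypes was possible. Intervals are 95% and cover counting error only, so no difference below can be told apart from one between 2 pools of animals.

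Over all kept cells the 10 genes together stood at 165.8 CPM under the mutant label and 161.7 CPM under the wild-type label, 0.04 apart on the log2 scale. Behind this near-equal sum the members went separate ways. *hmgcra*, which encodes HMG-CoA reductase, gave 3488 UMIs or 26.7 CPM against 2370 UMIs or 14.9 CPM, a log2 ratio of 0.84 with an interval of 0.77 to 0.92. *dhcr7*, the reductase of the last step to cholesterol, gave 11.1 CPM against 7.69 CPM and a log2 ratio of 0.53 (0.42 to 0.64). These were the members higher in the library labelled mutant past 1.2-fold. In the other direction *insig1* gave 18.8 CPM against 23.3 CPM, a log2 ratio of -0.31 (-0.39 to -0.24). *sqlea*, a squalene epoxidase gene, was read at only 115 and 183 UMIs and had a log2 ratio of -0.38 (-0.73 to -0.04). The 6 other members stayed within 1.2-fold, from -0.18 for *srebf2* and -0.17 for *lss* to 0.03 for *hmgcs1* and 0.06 for *ldlra*, with *idi1* at -0.14 and *cyp51* at -0.03.

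Of all genes, 11837 averaged 10 CPM or more over the libraries, and 13.9% of these were higher and 4.25% lower past 1.2-fold under the mutant label, and their median log2 ratio was 0.07. Of the members, 5 reached that level, and 1 of them was higher (*hmgcra*) and 1 lower (*insig1*), with a median of -0.14. *hmgcra* lay at percentile 98.8 of these genes and *insig1* at percentile 3.29, while *srebf2* lay at 7.55, *idi1* at 10.6 and *hmgcs1* at 39.9. Pooled values mix the makeup of the heads with the level per cell. When both libraries were given the wild-type shares of the gated types, *hmgcra* kept a log2 ratio of 0.84, *dhcr7* had 0.52 and *insig1* -0.30. Cells outside these types, 12837 and 18758 in number, entered as 1 class, so the makeup within that class was not adjusted.

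**Figure D1:**
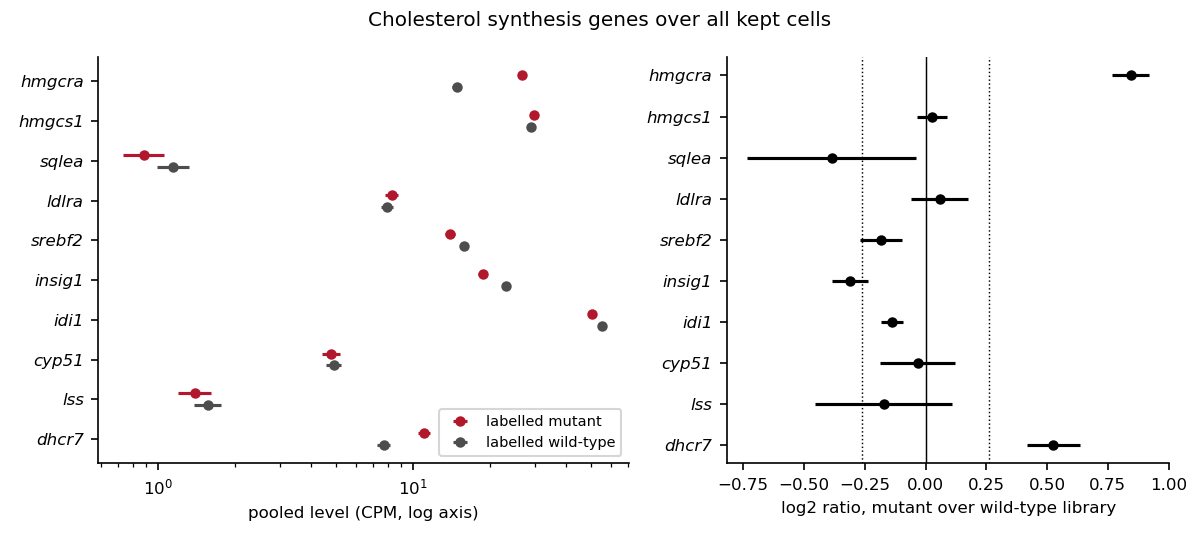
Pooled level of each member over all kept cells in CPM on a log axis (left, red for the library labelled mutant, grey for the library labelled wild-type) and the log2 ratio between them (right), with bars for 95% counting intervals and dotted lines at 1.2-fold. *hmgcra* and *dhcr7* lie to the right of the upper dotted line, and *insig1* and *sqlea* to the left of the lower one, though the intervals of both reach back across that line.

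Cone photoreceptors had by far the highest level of these transcripts per UMI. The members summed to 787 CPM there under the mutant label and to 944 CPM under the wild-type label. Periderm, the outer layer of the skin, came next in both libraries with 203 and 195 CPM, and radial glia after it with 188 and 166 CPM. The lowest sums were 75.7 CPM in erythrocytes of the library labelled mutant and 57.4 CPM in neutrophils of the library labelled wild-type. In that order, 17 of 19 neighbouring types had overlapping intervals in each library. The exceptions were cones above periderm in both, radial glia above skeletal muscle under the mutant label and periderm above radial glia under the wild-type label.

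The cone level came from a subset of the genes. In the library labelled wild-type, cones held 307 CPM of *hmgcs1*, 239 CPM of *hmgcra*, 203 CPM of *idi1*, 99.0 CPM of *insig1*, 45.5 CPM of *srebf2* and 31.4 CPM of *cyp51*, and cones ranked at the top for each of them. By contrast, cones had 3 UMIs of *ldlra*, which encodes the receptor that takes up LDL particles, and 14 UMIs of *dhcr7*. Cones were also highest for *lss*, at 11.4 CPM from 37 UMIs. High cone levels thus took in early steps and the later enzymes *cyp51* and *lss*, with low levels for receptor uptake and for the last reductase. Levels come from UMIs counted at 3′ ends, once per transcript, so no scaling by gene length applies, but capture can differ between genes.

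**Figure D2:**
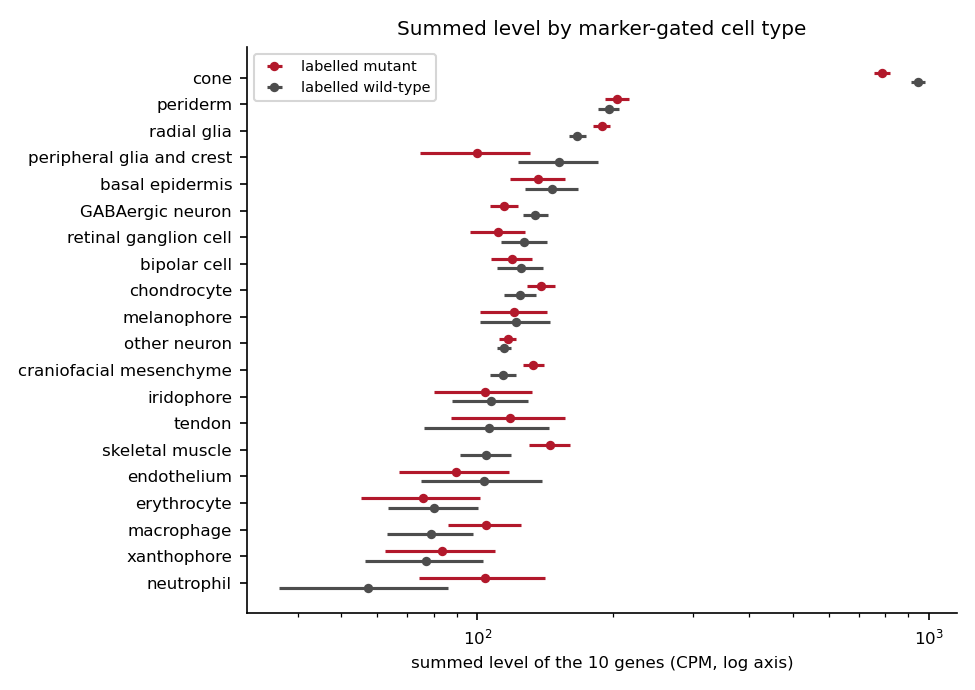
Summed level of the 10 genes in CPM on a log axis in each of the 20 gated types, for the library labelled mutant (red) and the library labelled wild-type (grey), with 95% Poisson intervals. Cones stand at 787 and 944 CPM, apart from every other type, and periderm at 203 and 195 CPM is next.

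Of the members, *hmgcra* had the highest log2 ratio over all cells, and its ratio varied by cell type. Both libraries were counted on the same annotation, but reads were not used here, so transcript ends and alleles of *hmgcra* that might differ between the pools were not examined. In skeletal muscle 283 cells of the library labelled mutant held 104 *hmgcra* UMIs, or 41.2 CPM, and 290 cells of the library labelled wild-type held 3 UMIs, or 1.31 CPM. The log2 ratio was 4.98, with a wide interval of 3.39 to 7.28 because of the 3 UMIs. In radial glia, the progenitor and support cells of the brain, the counts were 468 and 56 UMIs, the levels 43.4 and 4.79 CPM and the log2 ratio 3.18 (2.78 to 3.61). Skeletogenic tissue lay in the same direction. Craniofacial mesenchyme gave 144 and 13 UMIs, 14.5 and 1.60 CPM and a log2 ratio of 3.18 (2.36 to 4.13), and chondrocytes, the cartilage cells, gave 83 and 13 UMIs, 15.2 and 2.73 CPM and a log2 ratio of 2.47 (1.62 to 3.44), from 96 UMIs in all, just under the 100 asked of a pair elsewhere. Cells of the cycling gate, which overlaps the types, gave 851 and 144 UMIs, 48.9 and 5.22 CPM and a log2 ratio of 3.23 (2.97 to 3.49).

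Photoreceptors did not share this difference. Cones held 615 and 778 *hmgcra* UMIs, 216 and 239 CPM, a log2 ratio of -0.15 with an interval of -0.30 to 0.005 that just takes in 0. Rods were too few for the 50-cell minimum, with 60 and 41 cells, and held 113 and 229 CPM, a log2 ratio of -1.01 (-1.74 to -0.30). Retinal bipolar cells, with 44 and 36 UMIs, had a log2 ratio of -0.13 (-0.80 to 0.55). Neurons lay between the extremes. The broad neuron gate gave 12.5 and 7.93 CPM and a log2 ratio of 0.66 (0.38 to 0.94). GABAergic neurons gave 10.5 and 8.47 CPM and 0.31 (-0.20 to 0.83), which does not exceed counting error. Over 8 alternatives the GABAergic value ran from -0.13, when each cell was thinned to 1000 UMIs, to 1.06, and only thinning turned its sign. Periderm had 32 and 21 UMIs and a log2 ratio of 1.17 (0.34 to 2.04). Types with few UMIs showed no clear order, down to 1 and 0 UMIs in macrophages and 0 and 1 in neutrophils.

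**Figure D3:**
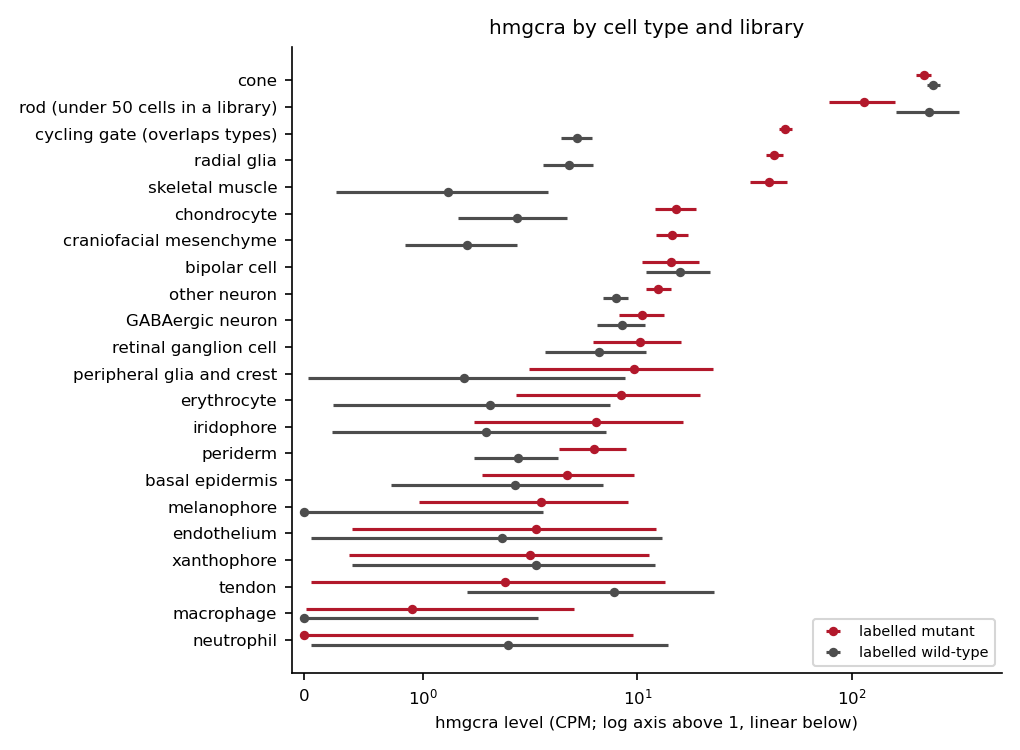
*hmgcra* level in CPM by gated cell type (log axis above 1, linear below), in the library labelled mutant (red) and the library labelled wild-type (grey), with 95% Poisson intervals. The intervals are far apart in radial glia, skeletal muscle, chondrocytes, craniofacial mesenchyme and cycling cells, and they overlap in cones at 216 and 239 CPM and in bipolar cells.

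Ranked by log2 ratio among all genes with at least 100 UMIs over both libraries, *hmgcra* was number 26 of 15870 in cycling cells and number 5036 of 6386 in cones. In those sets 28.8% and 20.2% of the genes were higher past 1.2-fold. Radial glia, craniofacial mesenchyme and skeletal muscle had under 100 *hmgcra* UMIs under the wild-type label, so no rank is read for them. In mesenchyme and muscle, with 13 and 3 UMIs under that label, *hmgcra* had to be high under the mutant label to be counted. The median log2 ratio of all genes with at least 100 UMIs was 0.17 in muscle and 0.10 in cycling cells, small beside the *hmgcra* ratios there.

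Photoreceptors held much of the pooled *hmgcra* signal, in a comparison chosen after the cone values were seen. In the library labelled wild-type 66.0% of all *hmgcra* UMIs lay in cells with at least 4 UMIs of rod and cone markers, against 34.8% in the library labelled mutant. Cells with no such UMI, 18017 and 25035 in number, held 18.2 and 5.17 CPM, a log2 ratio of 1.81 (1.67 to 1.96). Cells with 1 to 3 such UMIs held 19.7 and 5.91 CPM and a log2 ratio of 1.74 (1.53 to 1.95). Cells with at least 4 held 144 and 158 CPM and a log2 ratio of -0.13 (-0.24 to -0.02). Removing every cell with a rod or cone marker left the other types much as they were, with log2 ratios of 3.14 in radial glia, 3.44 in craniofacial mesenchyme, 4.77 in skeletal muscle and 2.82 in chondrocytes.

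**Figure D4:**
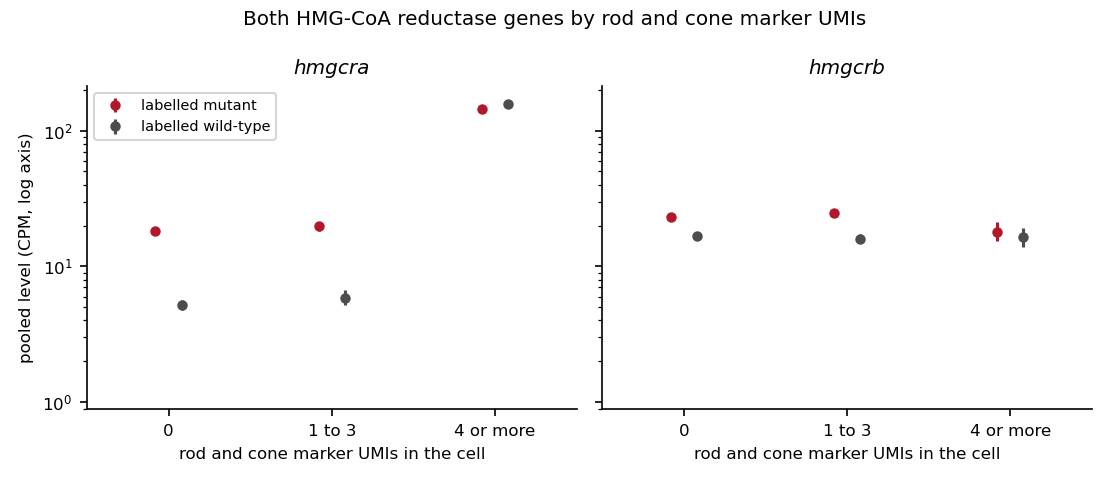
Pooled level in CPM on a log axis of *hmgcra* (left) and its paralog *hmgcrb* (right) in cells grouped by their number of rod and cone marker UMIs, for the library labelled mutant (red) and the library labelled wild-type (grey), with 95% Poisson intervals (often smaller than the points). *hmgcra* is at 18.2 and 5.17 CPM in cells with none and at 144 and 158 CPM in cells with 4 or more.

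In radial glia the difference held inside and outside the cycling gate. Radial glia that also passed that gate had 77.3 CPM against 5.39 CPM, a log2 ratio of 3.84 (3.18 to 4.58), and the others 31.8 CPM against 4.52 CPM, a log2 ratio of 2.82 (2.31 to 3.36). More cells carried the transcript. At least 1 *hmgcra* UMI was found in 14.2% of radial glia under the mutant label and 1.97% under the wild-type label, and in 22.6% and 0.69% of muscle cells. Because the libraries differ in depth, each cell was also thinned to 1000 UMIs, leaving out shallower cells, and the shares were then 3.15% (2.39% to 4.06%) and 0.461% in radial glia. In muscle they were 4.68% (2.51% to 7.86%) and 0 of 287 cells, which by a limit of 3 counts allows a share of up to 1.05%. Cones gave 17.3% and 19.9%. Free RNA puts UMIs into cells that do not express a gene, and no type is certain to lack this one. Macrophages were among the lowest types, and under the wild-type label, at a median depth of 7108 UMIs, 0 of 146 of them had a *hmgcra* UMI, which by the same limit allows a share of up to 2.05%. Per UMI the Poisson interval of macrophages there reached up to 3.43 CPM. The 4.79 CPM (3.62 to 6.23) of radial glia under the same label lay above that bound. Muscle at 1.31 CPM, craniofacial mesenchyme at 1.60 CPM and chondrocytes at 2.73 CPM lay below it. In these types of that library *hmgcra* was thus not detectably above the level of macrophages, and their log2 ratios rest on such levels.

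Keeping cells that passed the gates of 2 families lowered the log2 ratio of *hmgcra* to 0.998 in radial glia and 1.82 in craniofacial mesenchyme. Over the alternatives tried, the ratio ran from 0.998 to 3.51 in radial glia, from 1.82 to 3.44 in craniofacial mesenchyme, from 3.95 to 4.96 in skeletal muscle and from -0.23 to -0.09 in cones.

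*hmgcs1*, which makes the substrate of the reductase, had log2 ratios from -0.23 in radial glia to 0.25 in the broad neuron gate over the 7 types where it had at least 100 UMIs, and none passed 1.2-fold. In skeletal muscle it gave 28 and 30 UMIs, and in craniofacial mesenchyme 11.4 and 11.9 CPM. *idi1*, which isomerises isopentenyl diphosphate, was the most abundant member at 50.3 and 55.3 CPM. Of its 11 types with at least 100 UMIs, *idi1* was lower past 1.2-fold in 3 and higher in 1. It was lower in cones at 151 and 203 CPM (log2 ratio -0.43, -0.60 to -0.25), in GABAergic neurons (-0.39) and in retinal ganglion cells (-0.33, -0.77 to 0.10). The higher type was skeletal muscle (0.31, -0.03 to 0.66). The last 2 values do not exceed counting error. Over all genes with at least 100 UMIs, 9.81% to 18.7% were lower past 1.2-fold in those 11 types, and 40.8% were higher in muscle. *mvk* and *pmvk*, the kinases that act after the reductase, average under 10 CPM and are named after their values were seen. Over all cells they had log2 ratios of 0.27 (0.13 to 0.41) and 0.41 (0.18 to 0.64), and *mvk* had 0.69 (0.23 to 1.17) in radial glia and 0.90 (0.29 to 1.52) in cones. Other synthesis enzymes under 10 CPM, also named after their values were seen, went the other way. They were *mvda* at -0.29 (-0.41 to -0.18) and *sc5d* at -0.30 (-0.43 to -0.18). Of 16 other synthesis enzymes at 1 CPM or more, 3 were higher and 3 lower past 1.2-fold, with a median of -0.087. No share over all genes was taken at that minimum.

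Enzymes that follow squalene were mostly scarce. *sqlea* was highest in periderm, at 8.85 and 10.22 CPM, with 45 of its 115 UMIs and 77 of its 183 there. *lss*, lanosterol synthase, reached 100 UMIs in no type and was highest in cones at 6.66 and 11.4 CPM. *cyp51*, which demethylates lanosterol, stood highest in periderm (29.9 and 25.9 CPM) and cones (23.1 and 31.4 CPM). Its cone log2 ratio was -0.44 with an interval of -0.91 to 0.02. No pair of these genes and a type with at least 100 UMIs differed by more than counting error.

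*dhcr7* differed from its neighbours in the pathway. It was higher under the mutant label in each of the 5 types with at least 100 UMIs, past 1.2-fold in 4. Over all genes with at least 100 UMIs, 16.9% to 24.4% were higher past 1.2-fold in those 5 types. In radial glia 192 and 102 UMIs gave 17.8 and 8.73 CPM, a log2 ratio of 1.03 (0.67 to 1.39). Periderm had 0.67 (0.11 to 1.23), GABAergic neurons 0.65 (0.15 to 1.15), the broad neuron gate 0.36 (0.07 to 0.64) and craniofacial mesenchyme 0.15 (-0.29 to 0.59). Below that count, skeletal muscle had 22 UMIs against 2, a log2 ratio of 3.32 (1.30 to 6.46). Cones went the other way with 2 UMIs against 14, a log2 ratio of -2.62 (-5.80 to -0.50). *dhcr7* and *hmgcra* were thus both higher in radial glia and muscle and neither was higher in cones.

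*insig1*, which encodes a protein that retains SCAP, was lower past 1.2-fold under the mutant label in 3 of its 7 types with at least 100 UMIs. Over all genes with at least 100 UMIs, 9.81% to 16.3% were lower past 1.2-fold in those 7 types. In GABAergic neurons *insig1* gave 21.7 and 33.7 CPM, a log2 ratio of -0.64 (-0.94 to -0.34), in radial glia 17.2 and 25.9 CPM (-0.60, -0.87 to -0.33) and in cones 68.7 and 99.0 CPM (-0.53, -0.79 to -0.27). Muscle and retinal ganglion cells had under 100 UMIs and lay in the same direction, with 24 against 60 UMIs (-1.46, -2.21 to -0.75) and 22 against 54 UMIs (-1.004, -1.79 to -0.26). Melanophores did too, with 4 against 15 UMIs (-2.05, -4.10 to -0.40). Other types under 100 UMIs went the other way. Neutrophils had 10 against 1 UMIs (3.38, 0.57 to 8.82), and macrophages 33 against 20 UMIs (0.68, -0.16 to 1.56). Periderm at 0.33 (-0.07 to 0.72) and craniofacial mesenchyme at 0.23 (-0.15 to 0.61) lay above 0, within counting error. When each cell was thinned, the value in GABAergic neurons was -0.11. *srebf2*, which encodes SREBP2, was lower past 1.2-fold in 2 of 7 types, in cones at 33.0 and 45.5 CPM (-0.47, -0.85 to -0.08) and radial glia at 12.5 and 16.1 CPM (-0.36, -0.69 to -0.03), though thinning left 0.01 in radial glia. In the other 5 types it lay between -0.16 and 0.07. The same range of shares over all genes, 9.81% to 16.3% lower, applies to the 7 types of *srebf2*.

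*ldlra* had its own spread over the types. Under the wild-type label it stood at 18.3 CPM in chondrocytes, 20.7 CPM in periderm and 13.3 CPM in craniofacial mesenchyme, at 8.90 CPM in radial glia and at 0.683 CPM in GABAergic neurons. Among types with few UMIs, peripheral glia and crest held the highest level under that label at 21.9 CPM from 14 UMIs. Basal epidermis was next at 21.5 CPM from 32 UMIs. Under the mutant label tendon was highest at 28.9 CPM from 12 UMIs, and melanophores followed at 22.2 CPM from 25 UMIs. Craniofacial mesenchyme had 184 and 108 UMIs, a log2 ratio of 0.48 (0.13 to 0.84), and radial glia 69 and 104 UMIs, a log2 ratio of -0.48 (-0.94 to -0.02). A gate of at least 3 markers turned the radial glia value to 0.25. Chondrocytes, at 104 and 87 UMIs, had 0.06 (-0.37 to 0.49), and periderm 0.06 (-0.30 to 0.42).

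Of the 200 pairs of a member and a type, 51 had at least 100 UMIs over both libraries. Among these 12 were higher and 10 lower past 1.2-fold. Over all genes 21.4% of 119590 such pairs were higher and 13.8% lower, so the members as a set lay near the background, and 9 of their 12 higher pairs belonged to *hmgcra* and *dhcr7*. A pair can reach 100 UMIs through its higher library alone, as *hmgcra* in muscle did, so these counts describe the abundant pairs.

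**Figure D5:**
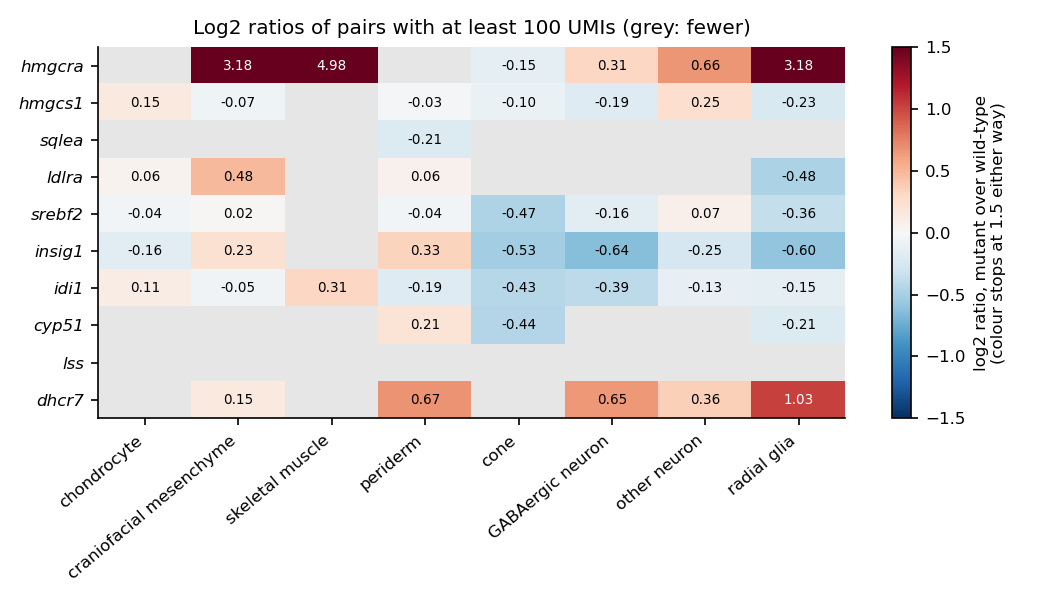
Log2 ratio of the library labelled mutant over the library labelled wild-type for each member (rows) in the 8 types (columns) with at least 2 members at 100 UMIs or more, with grey cells for fewer UMIs and the colour scale stopped at 1.5 either way. The *hmgcra* row holds 4.98 and 3.18 in muscle and in mesenchyme and radial glia but -0.15 in cones, the *dhcr7* row is above 0 throughout, and the cone column is below 0 throughout. Of the 22 pairs past 1.2-fold, GABAergic *hmgcra* (0.31) and radial glial *ldlra* (-0.48) and *srebf2* (-0.36) change sign under another setting, as do 16 of the 29 pairs within 1.2-fold.

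In cones the members leaned lower. All 6 with at least 100 UMIs had log2 ratios below 0 there, 4 of them past 1.2-fold, and the sum had -0.26 (-0.34 to -0.18). The intervals of *hmgcra*, *hmgcs1* and *cyp51* took in 0, and thinning gave 0.19 for *hmgcs1*. Of 9 other synthesis enzymes with at least 100 UMIs in cones, 2 were higher and 4 lower past 1.2-fold. The background shares of genes in cones were 20.2% higher and 12.98% lower. In radial glia the sum had 0.18 and in skeletal muscle 0.47. Both sums include *hmgcra*. It made up 43.4 of 188 CPM and 4.79 of 166 CPM in radial glia under the mutant and wild-type labels. In muscle it made up 41.2 of 144 CPM and 1.31 of 104 CPM.

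Of the other synthesis enzymes, 7 of 17 reached a mean of 10 CPM, and 1 was higher and 1 lower, with a median log2 ratio of -0.03. Over all genes at that level 13.9% were higher and 4.25% lower. *hmgcrb*, the second HMG-CoA reductase gene, was the higher one, at 23.1 and 16.5 CPM (0.49, 0.41 to 0.56). It was higher in radial glia with 348 and 180 UMIs (1.07, 0.80 to 1.34), in muscle with 95 and 42 UMIs (1.04, 0.50 to 1.60), in craniofacial mesenchyme (0.53, 0.17 to 0.89) and in GABAergic neurons (0.47, 0.13 to 0.81), and in cones it was at 13.3 and 15.7 CPM (-0.23, -0.88 to 0.40). The cone-rich form was thus *hmgcra*, and both forms were higher in glia and muscle. Reads that fit both copies equally are usually not counted, so their split is uncertain. *hsd17b7*, a sterol ketoreductase, was the lower one at 13.2 and 17.6 CPM (-0.41, -0.50 to -0.33), with -0.73 in radial glia and -0.61 in cones. *lbr*, a sterol reductase of the nuclear membrane, had -0.22, *msmo1* 0.13, *acat2* -0.08, and *fdps* and *ggps1*, the prenyl diphosphate synthases, -0.03 each.

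The SREBP machinery was nearly level. All 4 genes at 10 CPM or more, *scap* (0.06), *mbtps1* (0.04), *mbtps2* (0.11) and *ube2g2* (0.19), lay within 1.2-fold, with a median of 0.08. At a minimum of 1 CPM all 7 genes found lay above 0, with a median of 0.18, including *insig2* (0.18, 0.02 to 0.34) and *srebf1* (0.25, 0.13 to 0.37), which are named here after their values were seen. Over all genes at 10 CPM or more, 13.9% were higher and 4.25% lower past 1.2-fold, and the counts of these short lists stand beside those shares. In sterol uptake and trafficking 2 of 5 genes at 10 CPM or more were higher, *ldlrap1a* (0.28) and *npc2* (0.27), both close to the 1.2-fold line. None of the 5 was lower, with *lrpap1* (0.05) and *mylipa* (0.16) the lowest. At a minimum of 1 CPM 4 of 11 were higher and 1 lower. On the efflux side 3 of 4 genes at 10 CPM or more were higher and none lower. They were led by *apoeb*, an apolipoprotein E gene, at 303 and 187 CPM (0.70, 0.67 to 0.72). The cholesterol exporter gene *abca1b* had 0.34, while *abca1a* had 0.27 and *nr1h3*, a liver X receptor, 0.21. At a minimum of 1 CPM 4 of 7 efflux genes were higher and 1 lower. By type, the efflux genes with at least 100 UMIs were not higher everywhere. Their median log2 ratio was -0.12 in radial glia and -0.20 in chondrocytes, and 0.47 in periderm and 0.32 in bipolar cells. Of the 6 fatty acid synthesis genes at 10 CPM or more, 1 was higher, *acacb* (0.58), followed by *fasn* (0.15). Lowest of the 6 were *acss2* (0.02) and *elovl6* (0.06). At a minimum of 1 CPM 2 of 9 were higher and 1 lower. Shares over all genes were taken at 10 CPM only.

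Of a reference list of stress response genes, all 9 at 10 CPM or more were higher, against 13.9% of all genes at that level. The median of the list was 1.16, highest in *atf5b* (2.98) and *sesn2* (2.23) and lowest in *atf4a* (0.56) and *atf4b* (0.78). By type the median log2 ratio of the stress list was 2.45 in skeletal muscle, 2.09 in radial glia, 1.43 in craniofacial mesenchyme and 1.37 in chondrocytes. It was 0.69 in the broad neuron gate, 0.48 in GABAergic neurons, 0.09 in bipolar cells and -0.32 in cones. Each median takes only the list genes with at least 100 UMIs over both libraries in that type. The genes thus differ between types, from 5 in cones to 10 in radial glia. A gene can also reach that count through its higher library alone. The *hmgcra* values have limits of the same kind. Muscle and craniofacial mesenchyme reached 100 *hmgcra* UMIs only through the library labelled mutant, and chondrocytes and bipolar cells did not reach that count. No match over the types between *hmgcra* and the stress list is therefore read. These values come from the same 2 libraries, and the list was chosen with earlier results of these data known. The study itself reported on such genes. Any part of the stress response in the *hmgcra* difference was not tested.

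Across the 20 types the gene whose level most resembled the mean of the members was *hsd17b7*, with Pearson r of log2(CPM + 1) of 0.77 under the mutant label and 0.88 under the wild-type label. *chl1a* (0.72 and 0.86), *fat1b* (0.73 and 0.85), *osbpl7* (0.78 and 0.79) and *fdps* (0.73 and 0.83) followed. The order rests on the pseudocount, since with log2(CPM + 10) *fat1b* came out highest and *hsd17b7*, *chl1a* and *fdps* were no longer among the 5 highest. Among the members, *cyp51* (0.69 and 0.75) and *hmgcs1* (0.58 and 0.76) tracked the other 9 best on average over both libraries, and *dhcr7* (-0.20 and 0.07) and *ldlra* (-0.03 and 0.05) did not track them. The types share 2 libraries and differ in depth.

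Single cells rarely held several members. At least 1 member UMI was found in 40.1% of cells under the mutant label and 35.9% under the wild-type label, and at least 3 different members in 4.58% and 3.58%. After thinning to 1000 UMIs, 12.9% and 12.4% held at least 1.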

How the data were processed

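The authors deposited a table of unnormalized UMI counts for each gene in each barcode, made with Cell Ranger (8.0.0 per the file headers, another version in the methods) on GRCz11. Barcodes and gene names (other) were deposited beside them. Cells with 500 to 20000 UMIs, 500 to 5000 genes, a novelty score from 0.8 up and a mitochondrial share up to 20% were kept, as in the methods. The study's doublet caller was not repeated. Instead, cells passing the gates of 2 tissue families (11.5% and 9.88%) were left out of the cell types. They stayed in the values over all cells, in the cycling gate and in the split by rod and cone markers. A simulated-doublet score was an alternative. A gate needed at least 2 UMIs of each of at least 2 markers, a threshold set after marker detection was seen, when 2 xanthophore markers were also dropped. UMIs were pooled per type and given as CPM with exact Poisson, Clopper-Pearson and conditional binomial intervals, in Python 3.11.15 with numpy 2.4.6 and scipy 1.17.1. The interval code was tested on simulated data. Being past 1.2-fold is a size, not a test. TMM factors came from edgeR 4.0.16. The Wilcoxon test over cells was not repeated, since cells are not replicates. The members and lists were chosen with earlier results of these data known. Named genes were all members, the abundant genes of the 2 nearest lists and the 5 genes most like the members. From each other list the 2 highest and 2 lowest at 10 CPM or more were named. Promoter motifs and protein sequences were not analysed here.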

Additional observations from a re-analysis of the deposited data

Results flagged for a closer look

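*ldlra* lay on opposite sides of equality in 2 types. The log2 ratio of the library labelled mutant over the library labelled wild-type was 0.48 in craniofacial mesenchyme and -0.48 in radial glia, and the counting interval left out 0 in both. The difference between the types was not tested, since there is 1 library per genotype, and the radial glia value did not keep its sign under a stricter gate.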

How the results depend on the processing

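No paired analysis was possible because there is 1 library per genotype, and for the same reason no replicate could be left out. Over all cells, *hmgcra* had a log2 ratio of 0.64 with all deposited barcodes, 0.68 with cells thinned to 1000 UMIs, and, chosen after seeing the data, 1.16 outside the rod and cone gates and 1.81 in cells without a rod or cone marker UMI. Thinning also gave 0.10 for *hmgcs1*, -0.13 for *ldlra*, -0.22 for *insig1* and -0.018 for *idi1*. TMM scaling gave -0.043 for *hmgcs1* and -0.21 for *idi1*, and leaving out high doublet scores gave -0.084 for *hmgcs1* and -0.39 for *insig1*. Unthinned shares of cells gave log2 ratios of 1.08 for *hmgcra*, 0.16 for *ldlra* and 0.014 for *srebf2*. With a minimum of 1 CPM the list medians were -0.085 for the members, 0.18 for the SREBP machinery, 0.16 for uptake and 1.104 for the stress list, and with TMM -0.21 for the members, -0.10 for the other enzymes, 0.15 for uptake, 0.23 for efflux and 1.09 for the stress list. With log2(CPM + 10) *fat1b* had a mean r of 0.90 and stood highest, and *hsd17b7*, *chl1a* and *fdps* left the 5 highest. Of the 22 pairs past 1.2-fold 3 turned sign, and of the 29 others 16 did. The 3 were *hmgcra* in GABAergic neurons (-0.13) and *srebf2* in radial glia (0.012) when thinned, and *ldlra* in radial glia (0.25) with 3 markers. The causes were not tested. Depth limits *sqlea* and *lss* most.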
